A study of Mus musculus with 46 samples.

Results

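The regions described here are 236 domains of the histone variant H3.3 that were called on day 4 (D4) of the conversion of mouse embryonic fibroblasts (MEFs) to hematopoietic cells. A domain was taken when its peak was 5 kb or longer and shared no base with any H3.3 peak of the starting fibroblasts, profiled as MEF and as D0. The 236 domains were 2.11% of the 11182 D4 peaks of this length, and 108179 D4 peaks were called in all. The domains were thus selected on their D4 peak length and on the D4, MEF and D0 calls, so their absence from fibroblast lists and their size are given as description only.

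H3.3 differs from canonical H3 in a few residues and is laid down outside DNA replication, by the HIRA chaperone at active promoters, enhancers and gene bodies and by ATRX and DAXX at silent repeats. It marks places where nucleosomes are exchanged, which includes transcribed gene bodies and regulatory DNA. Trimethylated lysine 4 of H3 (H3K4me3) is found at active start sites, and trimethylated lysine 36 (H3K36me3) along transcribed gene bodies.

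Chromatin immunoprecipitation and sequencing (ChIP-Seq) was done with one H3.3 antibody in 16 libraries, next to 7 libraries of H3K4me3 and 7 of H3K36me3. The MEFs of the study came from mouse embryos that carried an IRES-EGFP cassette in Oct4, and cells bearing hematopoietic markers had been sorted out before conversion. For transdifferentiation MEFs received Scl (Tal1), Lmo2, Bmi1 and Runx1 (SLBR) and were grown on inactivated OP9 stromal cells with cytokines that included SCF, IL3 and FLT3L. MEF was day 0 and D4 was day 4 after SLBR induction, neither of them sorted, while cKit+ and cKit- were fully transdifferentiated cells sorted by the progenitor receptor cKit. For reprogramming MEFs received Oct4, Sox2, Klf4 and c-Myc, which gave D0, unsorted D3, and fractions sorted by Thy-1 on days 6 and 9 (D6T-, D9T-, D6T+, D9T+) or SSEA-1 on days 12 and 16 (D12S+, D16S+, D12S-, D16S-). Fully reprogrammed iPSCs and ESD3, a mouse embryonic stem cell line, were profiled as well. With 1 library per group there was no replicate error, and differences between libraries were not tested.

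The D4 library had the largest share of tags in peaks and the widest peak cover (267 Mb) of the H3.3 libraries, with 37.2% of its 63.7 M tags in peaks, against 7.64% of 46.7 M in MEF, 19.1% of 27.0 M in D0, 1.65% of 91.8 M in cKit+ and 2.31% of 51.6 M in cKit-. The median fold over input of its peaks was 2.88, above MEF, cKit+ and cKit- (2.19 to 2.61) and below the other 12 H3.3 libraries (3.25 to 4.48). The part of these differences in the choice of new domains was not tested. D0 decided much of the choice, since 1869 long D4 domains lacked a MEF peak when D0 was not used, and 426 lacked a D0 peak when MEF was not used. The longest D4 peak was 36.1 kb in the fibroblast gene Col1a1, 36.6 kb in Col1a2, 6.16 kb in Col3a1 and 5.09 kb in Twist1. In the fibroblast genes Thy1, Twist2 and Pdgfra it was 13.8 kb, 13.5 kb and 7.75 kb. In hematopoietic genes it was 10.8 kb in Gata2, 7.41 kb in Itga2b, 1.90 kb in Kit (the cKit receptor), 1.11 kb in Cd34 and 0.675 kb in Ptprc (the leukocyte antigen CD45). Runx1 had 29 D4 peaks with 1320 tags in all, and Runx1, Gata2, Itga2b and Cd34 also had MEF and D0 peaks. In Ptprc cKit- had 5 peaks (45.3 tags) and cKit+ none, and in Kit neither fraction had a peak. In stromal and adipogenic genes the longest D4 peak was 13.7 kb in Cxcl12, 4.98 kb in Vcam1, 4.80 kb in Lpl, 2.82 kb in Pparg and 0.500 kb in Adipoq. Fabp4 had no D4 peak, and Cxcl12, Vcam1, Lpl and Pparg also had MEF and D0 peaks. OP9 cells are stromal, and peaks from any left in the D4 culture cannot be told apart from peaks of the converted cells.

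To show the DNA of the domains that the results below turn on, the central 300 bases of 5 of them were read from the mm9 genome, plus strand, 5′ to 3′. They are the domain with the highest tag count, the strongest domain seen in no other H3.3 library (Gzmd), the strongest one also bound in both cKit fractions (Slc30a9), and the domains in Inpp5d and Cdh1. Capitals mark matches to 1 of 6 transcription factor motifs on either strand. The AP-1 motif was searched as TGANTCA, the motif of GATA factors as AGATAA and the motif of RUNX factors as TGTGGTT. The E-box was searched as CAGCTG, the motif of ETS factors as CCGGAA and the motif of TEAD factors as GGAATG.
Intergenic, highest tag count, chr6:43203025-43203324: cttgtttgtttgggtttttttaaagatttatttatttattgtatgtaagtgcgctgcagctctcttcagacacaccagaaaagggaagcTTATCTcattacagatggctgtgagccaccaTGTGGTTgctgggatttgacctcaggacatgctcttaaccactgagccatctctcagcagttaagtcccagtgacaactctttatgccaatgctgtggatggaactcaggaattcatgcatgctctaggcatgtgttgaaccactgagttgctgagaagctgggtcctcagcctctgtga
Gzmd, chr14:56749479-56749778: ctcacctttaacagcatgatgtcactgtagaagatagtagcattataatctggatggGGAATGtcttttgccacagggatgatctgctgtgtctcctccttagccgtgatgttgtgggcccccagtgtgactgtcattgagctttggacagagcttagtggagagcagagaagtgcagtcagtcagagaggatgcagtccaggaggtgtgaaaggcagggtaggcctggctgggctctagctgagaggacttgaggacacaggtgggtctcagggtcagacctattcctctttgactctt
Slc30a9, upstream of the start, chr5:67694544-67694843: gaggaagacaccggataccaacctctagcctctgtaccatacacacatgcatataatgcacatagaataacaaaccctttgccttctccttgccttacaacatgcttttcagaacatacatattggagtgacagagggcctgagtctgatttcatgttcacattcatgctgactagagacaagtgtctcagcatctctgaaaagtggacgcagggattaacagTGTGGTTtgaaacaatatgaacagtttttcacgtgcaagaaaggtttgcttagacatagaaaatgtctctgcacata
Inpp5d, intron, chr1:89535125-89535424: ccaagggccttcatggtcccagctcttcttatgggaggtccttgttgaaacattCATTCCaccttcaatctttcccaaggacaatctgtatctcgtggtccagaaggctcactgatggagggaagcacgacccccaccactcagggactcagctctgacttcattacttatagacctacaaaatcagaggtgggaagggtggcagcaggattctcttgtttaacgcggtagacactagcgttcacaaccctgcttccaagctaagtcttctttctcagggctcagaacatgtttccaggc
Cdh1, intron, chr8:109166117-109166416: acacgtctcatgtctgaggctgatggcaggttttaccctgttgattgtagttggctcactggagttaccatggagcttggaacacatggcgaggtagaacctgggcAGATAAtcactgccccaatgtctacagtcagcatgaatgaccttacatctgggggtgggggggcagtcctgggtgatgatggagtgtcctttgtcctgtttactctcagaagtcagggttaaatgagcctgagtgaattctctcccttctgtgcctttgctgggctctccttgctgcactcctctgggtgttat

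In base composition the new domains were close to the other long D4 domains. Sequence was at hand for 235 of the domains, all but 1 on an unplaced piece of chromosome 17. The median GC content of the domains was 46.6% (35.7 to 60.2%), against 47.0% in the other D4 domains of 5 kb or more. CpG dinucleotides were a little sparser, with a median of 10.9 per kb against 13.5, and 11.2 against 12.8 when only domains of 5 to 6 kb were compared. An AP-1 match stood in 11.9% of the central windows (28 of 235; 95% Wilson interval 8.37 to 16.7), a GATA match in 13.2% (9.45 to 18.1) and a RUNX match in 8.09% (5.24 to 12.3). Of the windows of all D4 peaks, 14.6%, 15.1% and 10.3% held these matches. E-box, ETS and TEAD matches stood in 13.6%, 5.96% and 18.3% of the domain windows, against 16.4%, 4.22% and 18.5% of all D4 windows. The intervals of the domains for E-box (9.81 to 18.6%), ETS (3.58 to 9.75%) and TEAD (13.9 to 23.7%) held the values of all D4 windows, as those for AP-1, GATA and RUNX did.

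The new domains lay toward the short and weak end of the long D4 domains. Their lengths ran from 5005 to 13449 bp with a median of 5754 bp, and 141 of the 236 were under 6 kb. The other 10946 long domains had a median of 7510 bp and reached 218607 bp. The level, given as tags scaled to 10 M per library, ran from 49.5 to 199 with a median of 69.6, against a median of 113 in the other long domains. Per kb the new domains held a median of 11.9 such tags against 14.9, and among domains of 5 to 6 kb 11.8 against 14.3. Enrichment over input was 2.95-fold in the median (2.17 to 5.99), against 3.41-fold. Together they covered 1474 kb and held 0.488% of all D4 tags in peaks.

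**Figure D1:**
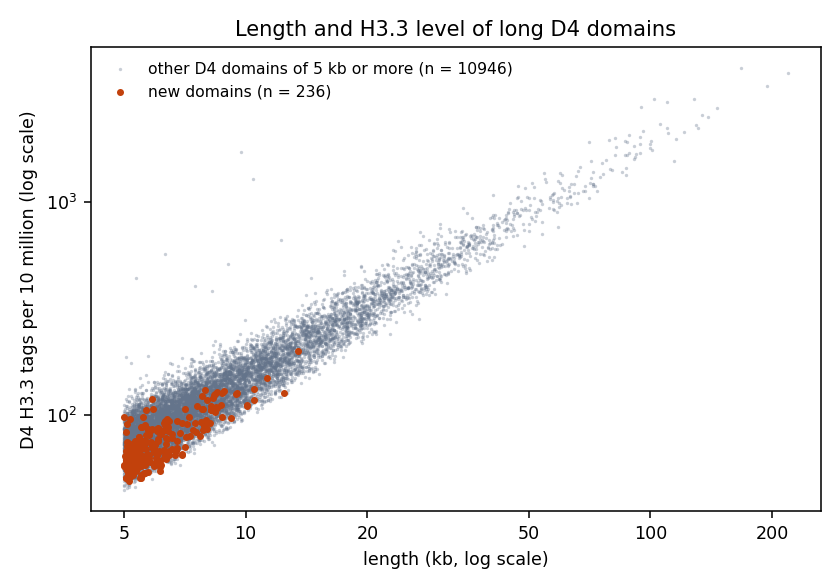
Each point is 1 D4 domain of 5 kb or more, by its length in kb (horizontal, log scale) and its H3.3 tags per 10 M (vertical, log scale); orange points are the 236 new domains and grey points the other 10946. The new domains lie at the lower left, none longer than 13449 bp, while the grey points run on to 218607 bp.

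Next to the length limit, the 3 shortest members were an intergenic domain on chromosome 4 (5005 bp, 58.5 tags), 1 in Fyn (5011 bp, 58.2 tags) and 1 in Mad1l1 (5013 bp, 97.8 tags). Just below it were D4 peaks in Mfn2 (4994 bp, 70.1 tags), Gcnt2 (4987 bp, 49.3 tags) and Tln2 (4967 bp, 60.3 tags), which also lacked a fibroblast peak.

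New did not mean remote. The nearest MEF or D0 peak lay a median of 3422 bp away (22 to 275462 bp), within 1 kb for 36 domains, within 5 kb for 143 and beyond 40 kb for 9. The farthest was an intergenic domain at chr11:24649254-24654723, 671318 bp from the start of Bcl11a. Of the other 8, 1 lay in Ly9, a surface receptor of lymphocytes (99791 bp from a fibroblast peak), and 1 in Inpp5d, the SHIP1 phosphatase of blood cells (60579 bp). Others lay in Fhl1 (54060 bp), Thrb, the thyroid hormone receptor beta (47028 bp), Pcsk5 (46756 bp), Scgn (44096 bp) and St8sia2 (42494 bp), and 1 between genes on chromosome 5 (46030 bp). Ly9, Fhl1, Thrb, Pcsk5, Scgn and St8sia2 are named here by distance, after their values were seen.

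The domains sat mainly inside genes. By the midpoint, 146 were in introns (61.9%, 55.5 to 67.8), 57 between genes (24.2%), 15 in exons, 10 at transcript ends and 8 at promoters. Of the other long domains 57.0% were intronic, 21.4% intergenic and 6.55% at promoters. A start site of a protein-coding transcript fell within 38 of the new domains (16.1%, 12.0 to 21.3) and within 38.3% of the other long domains. Among domains of 5 to 6 kb these shares were 17.7% (12.3 to 24.9) and 28.5% (26.8 to 30.2). The other long domains all had a MEF or D0 peak, and the part of that rule in these differences was not tested. The 8 promoter domains were at Tesc, Man1c1, Dnajb4, Nav2, St8sia2, Arhgap28, Aste1 and Kpna6, with 50.7 to 87.9 tags.

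In all, 179 domains (75.8%, 70.0 to 80.9) had their midpoint in a protein-coding gene or within 1 kb of one. This was close to the 78.7% of the other long D4 domains. Among domains of 5 to 6 kb the shares were 76.6% (69.0 to 82.8) and 73.2%. Such genes with their flanks cover 38.8% of the placed genome and held 64.9% of all D4 peaks. The genes holding the midpoint of a new domain numbered 168, or 0.751% of the 22367 annotated. They were long, with a median of 78.2 kb against 28.4 kb for genes holding another long D4 domain and 15.4 kb for all genes. Of the 168 genes, 154 (91.7%) had a MEF or D0 peak elsewhere in their body, compared with 61.7% of all genes. The other 14 had no peak in either fibroblast library, Inpp5d among them. Another long D4 domain was held by 95 of the 168, a larger share than the 24.6% of all genes. These comparisons with all genes were not matched for gene length.

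The domain with the highest tag count was intergenic, at chr6:43196450-43209899, 12469 bp from the start of Arhgef5, a guanine nucleotide exchange factor. It was also the longest, at 13449 bp, with 199.4 tags. D3 peaks covered 25.6% of it, D9T+ peaks 9.40% and D12S- peaks 3.72%, and no peak was called there in the other 10 H3.3 libraries outside the rule. The next was in an intron of Sorcs2, a sorting receptor for neurotrophins, at chr5:36524675-36535974 (149.8 tags), where D3 peaks covered 7.82%.

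A domain near Ddah1, which breaks down methylated arginines, followed with 132.4 tags at chr3:145558051-145568530. The domain over Gzmd, granzyme D of cytotoxic lymphocytes, held 131.1 tags at chr14:56745657-56753599 and met no peak in any other library, H3K4me3 and H3K36me3 included. It spanned introns and exons of the gene, and it lies among close paralogs, where reads that fit more than one place had been dropped by the authors. The domain at the start of Slc30a9, a zinc transporter, and mostly upstream of it, held 129.8 tags at chr5:67690278-67699109.

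Domains over Fam101b, which encodes a filamin-binding protein (128.7 tags), at the start of Itga11, the collagen-binding integrin alpha 11 (126.9 tags), in 9930013L23Rik (126.5 tags), in Stab2, a scavenger receptor for hyaluronan (126.5 tags), and in AI661453 (126.2 tags) completed the 10 highest. Tags per kb in these 10 ran from 10.1 in 9930013L23Rik to 16.5 in Gzmd. By length, the domains after the first were in 9930013L23Rik (12.5 kb) and Sorcs2 (11.3 kb), just beyond the end of Ddah1 (10.5 kb), and over the ends of Dgkd (10.5 kb), Efnb1 (10.1 kb) and Col8a1 (10.1 kb). Those at the start of Itga11 (9.54 kb) and in Htr2a (9.44 kb) and Fbrsl1 (9.21 kb) came next.

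Several genes held more than 1 new domain. 9930013L23Rik, a 154 kb gene on chromosome 7, held 4 of them with 35.8 kb in all, 23.3% of the gene. Their tag counts were 126.5, 86.3, 83.5 and 79.9. D0 had 14 peaks and MEF 2 in the same gene, all outside the domains as the rule requires, and cKit+ and cKit- had 2 each. All 4 domains met D9T+, D12S- and D16S- peaks, all 4 met D0, D3 and D9T- H3K36me3 peaks, and none met a D3, iPSCs or ESD3 H3.3 peak.

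Lpp, a LIM protein of focal adhesions, also held 4 domains (56.1 to 64.8 tags), amid 116 D0 and 66 MEF peaks over 599 kb. Tln2, which encodes the adhesion protein talin 2, held 3 domains of 67.8, 64.5 and 60.6 tags, and none of the 3 was found in any other H3.3 library. Arhgap28, a GTPase-activating protein, had 3 (52.8 to 68.3 tags), of which 1 lay mostly beyond the end of the gene. The middle one of the 3, at a transcript start, met D6T- and D12S- peaks, and the other 2 met none.

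**Figure D2:**
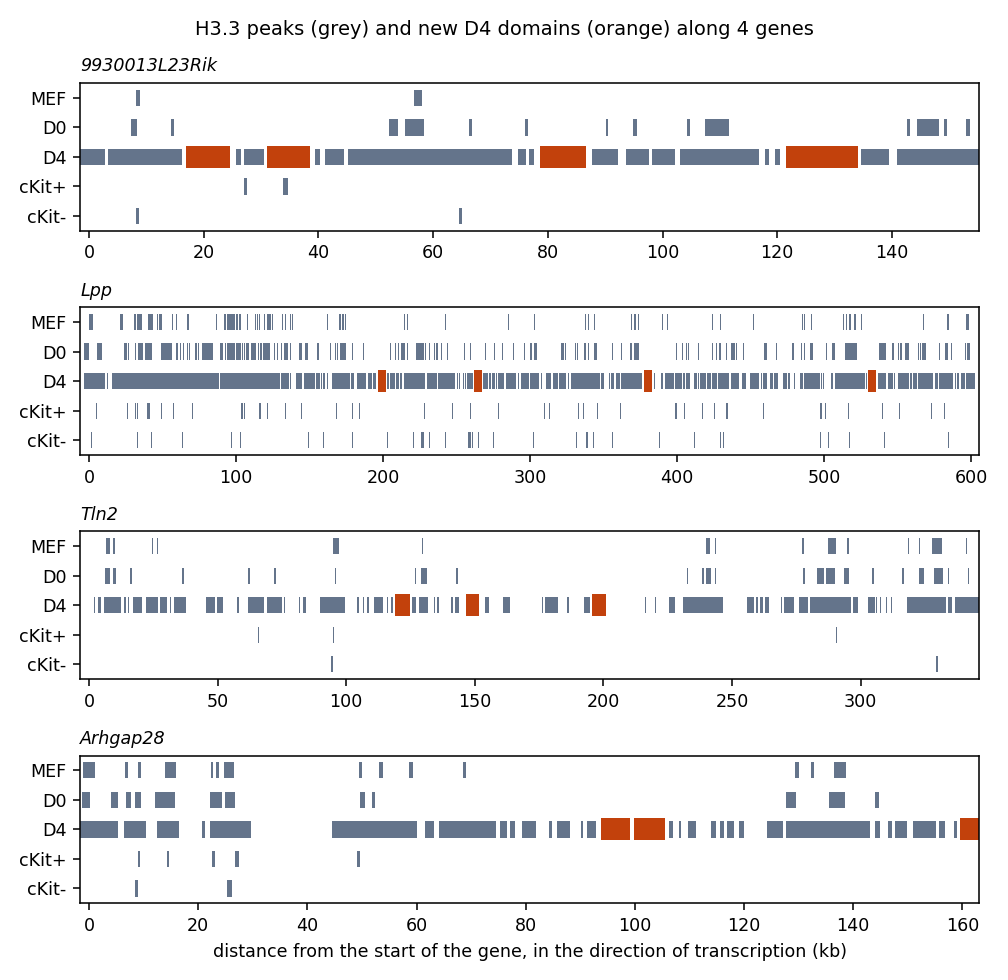
Each panel is 1 gene drawn from its start in the direction of transcription (kb), with H3.3 peaks of MEF, D0, D4, cKit+ and cKit- as bars in 5 rows; orange bars are new domains and grey bars all other peaks. The 4 domains of 9930013L23Rik lie between D0 peaks, those of Lpp among 116 D0 peaks, and those of Tln2 and Arhgap28 in stretches with few fibroblast peaks.

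Pairs of domains lay, among others, in Srgap3, another GTPase-activating protein (109.3 and 107.3 tags), Faf2, a factor of protein degradation (91.7 and 59.9 tags), Hs6st2, which sulfates heparan sulfate (67.7 and 60.1 tags), and Nav2 (63.0 and 58.8 tags). The 2 domains in Faf2 covered 31.5% of the gene. Arfip1 and the read-through model Gm20388 also had a pair each, but their annotated spans of 1391 and 4435 kb take in other genes. Such neighbours share a locus and are not independent, since 26 of the 236 domains had another within 50 kb.

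Chromosome X held 9 of the domains, 2 of them in Hs6st2, 1 within and 1 over the end of Efnb1, the membrane ligand ephrin-B1, and others in Syn1, Renbp, Txlng and Fhl1 and near Zmat1. The 9 were 17.0% (9.20 to 29.2) of the 53 long D4 peaks on X, against 2.03% (1.79 to 2.31) on autosomes. These shares count the peaks that the rule kept, so they depend on the MEF and D0 calls and are description only. X held 1.51% of D4 peaks, 0.734% of MEF and 0.656% of D0 peaks. Input on X was lower, with a median of 14.6 input tags per kb in the 9 domains against 26.1 in the autosomal ones, while normalized tags per kb were 10.5 and 12.0. Fold over input was 4.50 in the median on X (3.48 to 5.99) and 2.92 on autosomes. The part of the low input in the calls on X was not tested.

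Across 11 lists of cell type and housekeeping genes, 6 genes held a new domain. Overlap with a domain, or its midpoint within 1 kb, was found for 0.849% of all genes. It was found for 1 of 40 hematopoietic transcription factors (Zfpm1), 1 of 47 hematopoietic surface and signalling genes (Inpp5d), 2 of 48 fibroblast and mesenchymal genes (Cdh2 and Col5a2) and 2 of 29 epithelial genes (Cdh1 and Tjp1). No domain fell on the 24 endothelial, 22 stromal, adipogenic and osteogenic, 20 muscle, 35 innate response, 37 pluripotency, 38 neuronal or 34 housekeeping genes. The midpoint of another long D4 domain lay in 24.6% of all genes. It lay in 35 of the 48 fibroblast, 23 of the 34 housekeeping, 13 of the 20 muscle, 16 of the 40 hematopoietic factor, 8 of the 24 endothelial and 6 of the 22 stromal genes. It lay in 6 of the 35 innate response, 5 of the 29 epithelial, 4 of the 37 pluripotency, 5 of the 47 hematopoietic surface and 3 of the 38 neuronal genes.

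The domain in Zfpm1, the FOG1 cofactor of GATA1, held 77.9 tags at chr8:124832285-124838862 with a 4.12-fold enrichment, and no other H3.3 library had a peak there. The domain in Inpp5d held 73.9 tags at chr1:89532523-89538026. Peaks covered 18.2% of it in cKit+, 30.1% in cKit- and 26.1% in iPSCs, and none was called there in the other 10 H3.3 libraries. Of the domains in these hematopoietic genes, that of Inpp5d met peaks of both cKit fractions and that of Zfpm1 of neither.

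The domain in Cdh1, the epithelial cadherin, held 74.3 tags at chr8:109163704-109168829. A peak of iPSCs covered 90.9% of it and ESD3 peaks 32.5%, against 7.57% in D6T-, 5.72% in D9T-, 9.77% in D12S+, 19.5% in D12S- and 12.4% in D16S-. No peak was called there in D3, D6T+, D9T+, D16S+ or either cKit fraction. The domain in Tjp1, the tight junction protein ZO-1, met peaks in 7 libraries, with the widest cover in D12S- (32.4%), and in neither iPSCs nor ESD3. Those in Cdh2, neural cadherin (78.9 tags), and Col5a2, a fibrillar collagen (68.9 tags), met 1 and 4 libraries.

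The genes of the delivered factors held no new domain. Tal1 had 4 D4 peaks of at most 1.44 kb with 112 tags in all, Lmo2 had 3 of at most 2.28 kb with 56.1 tags, and both had none in MEF and D0. Bmi1 had 3 D4 peaks of at most 4.46 kb with 107 tags, and 1 MEF peak of 6.10 tags. Runx1 had 29 D4 peaks, 34 MEF and 33 D0 peaks. The part of the delivered copies in these peaks was not tested.

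Of the new domains, 43 (18.2%, 13.8 to 23.6) met a cKit+ peak, where 50.1% of all D4 peaks of 5 kb or more did. In cKit- it was 35 (14.8%, 10.9 to 19.9) against 44.1%. The shares were 17.0% and 14.9% among domains of 5 to 6 kb, against 34.3% and 31.6% of the other domains of that length. Either fraction was met by 64 domains and both by 14, which were 14 of the 43 in cKit+ and 14 of the 35 in cKit-. These were 27.1% and 5.93% of the new domains, against 63.8% and 31.7% of the other long domains. Of the shorter D4 peaks without a fibroblast peak, 4.04% met a cKit+ and 3.86% a cKit- peak. No new domain met a cKit peak of 5 kb or more, and few such peaks were called, 7 in cKit+ and 21 in cKit-. Of the 10946 other long domains, 7 met one in cKit+ and 13 in cKit-. Where a cKit+ peak was met it covered a median of 9.88% of the new domain, against 9.15% in the other long domains.

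The 10 highest of the 14 in both fractions were at the start of Slc30a9, in Cdk8, a kinase of the Mediator complex (107.5 tags), at the start of Adap2 (89.9 tags), between genes on chromosome 1 (87.1 tags) and, as a pair, on chromosome 19 (86.1 and 75.2 tags), in Inpp5d, in Papd4, a poly(A) polymerase (69.0 tags), at the start of Ctu1, a tRNA-modifying enzyme (65.3 tags), and in Ghr, the growth hormone receptor (65.1 tags). In Cdk8 the cKit+ peak covered 27.9% and the cKit- peak 6.40%. The Slc30a9 domain was covered for 5.67% in each fraction, and for 57.5% in D6T- and 52.4% in D12S-. A cKit peak and no reprogramming peak were met by 7 domains (2.97%, 1.44 to 5.99), against 0.439% of the other long domains, which all had a MEF or D0 peak. They included 1 in Fam171a1, 1 in Aste1 and 1 in Lpp.

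In the reprogramming libraries 180 of the 236 domains (76.3%, 70.5 to 81.3) met at least 1 peak, against 98.2% of the other long domains. Day 3 shared 110 (46.6%, 40.4 to 53.0), against 89.0% of all D4 peaks of 5 kb or more. In the fractions that the study took as the successful route, D6T- shared 98 (41.5%, 35.4 to 47.9; background 82.9%), D9T- 81 (34.3%; 77.0%), D12S+ 49 (20.8%; 63.2%) and D16S+ 35 (14.8%; 47.4%). The iPSCs shared 84 (35.6%, 29.8 to 41.9; background 68.8%) and ESD3 63 (26.7%; 57.7%), and 49 domains met both. Every one of the 13 shares lay below its background. However, the rule had already removed each domain with a D0 or MEF peak, so a library that shares peaks with fibroblasts loses members by construction. The part of the rule in each of these differences was not tested.

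**Figure D3:**
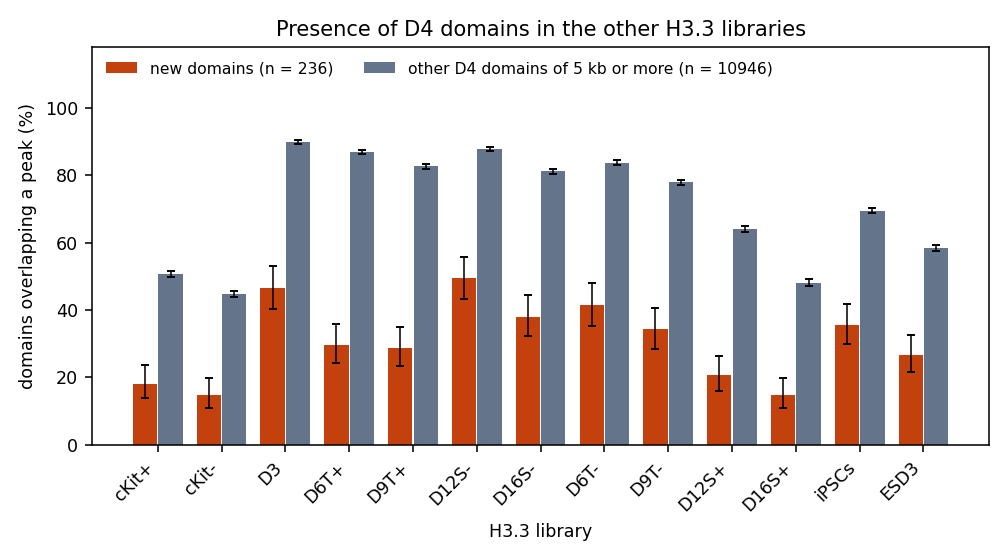
Bars give the share of domains (%) that overlap a peak by 1 bp or more in each of the 13 other H3.3 libraries, orange for the 236 new domains and grey for the other 10946 long D4 domains, with 95% Wilson intervals for counting error. The orange bars run from 14.8% in cKit- and D16S+ to 49.6% in D12S-, below every grey bar of the same library.

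In the fractions taken as unsuccessful, D6T+ shared 70 domains (29.7%, 24.2 to 35.8; background 85.6%), D9T+ 68 (28.8%; 81.5%), D12S- 117 (49.6%, 43.3 to 55.9; 87.1%) and D16S- 90 (38.1%; 80.4%). D12S- thus met the most new domains of all 13 libraries and D16S+ and cKit- the fewest. On day 6 the T- fraction met 11.9 points more of the new domains than the T+ fraction, with 48 domains in D6T- alone and 20 in D6T+ alone, whereas among the other long domains the difference was -2.98 points. On day 9 the T- fraction met 5.51 points more of the new domains, and the difference among the others was -4.70 points. The difference of S+ from S- was -28.8 points of the new domains on day 12 and -23.3 points on day 16, and -23.8 and -33.2 points of the others.

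The lists differed in size, from 25637 peaks in cKit- to 87536 in D12S- among these 13. When the 25637 top-scoring peaks of each list were used, the shares of new domains drew together, from 10.6% in D9T+ to 20.3% in D12S-. D6T- then met 14.4% and D6T+ 11.9%, D9T- 15.3% and D9T+ 10.6%, and cKit+ 16.5% and cKit- 14.8%. D12S+ then met 26 domains and D12S- 48, and D16S+ met 26 and D16S- 31, where the full lists had given 35 and 90 on day 16. Of the other long domains, the same equal lists met from 41.2% in ESD3 to 68.7% in D6T+. Among those domains D6T- met 61.8%, below D6T+, and D9T- met 57.8% and D9T+ 63.8%. The shares there were 50.5% in D12S+ and 66.4% in D12S-, 41.3% in D16S+ and 62.1% in D16S-, and 48.4% in cKit+ and 44.7% in cKit-.

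Where a library did have a peak in a new domain, that peak was mostly short. The median cover of the domain ran from 8.85% in cKit- to 22.4% in iPSCs, against 9.18% and 32.6% in the other long domains. Over all bases of the new domains, cover was highest in D12S- (13.7%) and D6T- (10.9%) and was 1.98% in cKit+. In the other long domains it was 48.9%, 43.9% and 6.32%. A peak of 5 kb or more met 7 of the new domains in D6T-, 6 in D12S-, 4 in iPSCs, 2 in D9T-, 2 in ESD3 and none in the other 8 libraries. Of the 10946 other long domains, such a peak met 2673 in D6T-, 3077 in D12S-, 1126 in iPSCs, 1610 in D9T- and 199 in ESD3.

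Counted over the 13 libraries, a new domain met peaks in a median of 3.50 and another long domain in 10. None of the new domains was found in all 13, and 3 were found in 12, in Ralgapa2, a Ral GTPase-activating protein (110.1 tags), Zfhx3, a zinc finger homeobox factor (62.6 tags), and Polr3c, a subunit of RNA polymerase III (59.9 tags). In Ralgapa2 D6T- peaks covered 66.7%, D9T- 55.4%, D12S- 52.2% and cKit+ 8.38%, and cKit- alone had no peak. In Polr3c the widest cover was in iPSCs (54.4%), and in Zfhx3 in D12S- (54.7%). The 18 domains in 10 or more libraries had a median of 66.1 tags. H3K4me3 peaks of at least 1 library met 15 of these 18 (83.3%, 60.8 to 94.2). They met 48.1% (41.1 to 55.3) of all 187 new domains found in at least 1 of the 13 libraries, the 18 included. Single H3K4me3 libraries met from 36.4% (D16S+) to 66.9% (D0) of the other long domains.

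A further 49 new domains (20.8%, 16.1 to 26.4) met no peak in the 13 libraries and so, with the rule, were seen in D4 alone. Of all D4 peaks of 5 kb or more, 1.80% met none of the 13, whether or not they met a MEF or D0 peak. Of the shorter D4 peaks without a fibroblast peak, 52.8% met none. Their median tag count, 69.3, was close to the 69.6 of the other 187, and their median fold was 3.13 against 2.92. They lay farther from fibroblast peaks, with a median of 9259 bp against 2997 bp. Besides Gzmd, the strongest were at the start of Itga11 (126.9 tags), in Radil, an effector of the GTPase Rap1 (124.4 tags), at the end of Col8a1, a collagen (111.8 tags), and in Srgap3 (107.3 tags). Zfpm1, Ly9, all 3 domains of Tln2 and both of Hs6st2 were also among the 49. Radil was named after its values were seen.

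**Figure D4:**
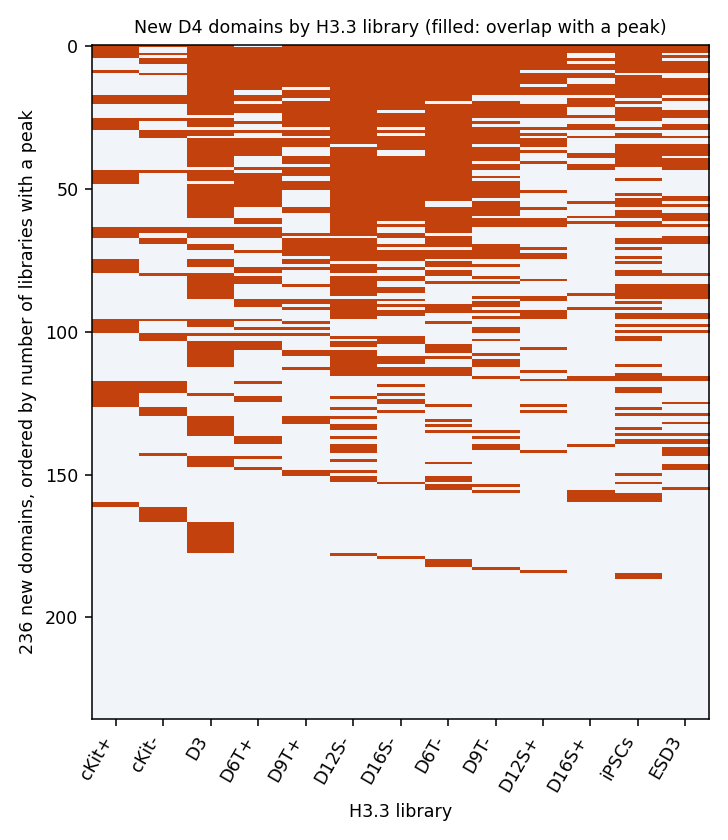
Rows are the 236 new domains, ordered by how many libraries had a peak in them, and columns the 13 H3.3 libraries outside the rule; a filled cell marks 1 bp or more of overlap with a peak. The top rows are filled nearly throughout, and the lowest 49 rows are empty.

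**Figure D5:**
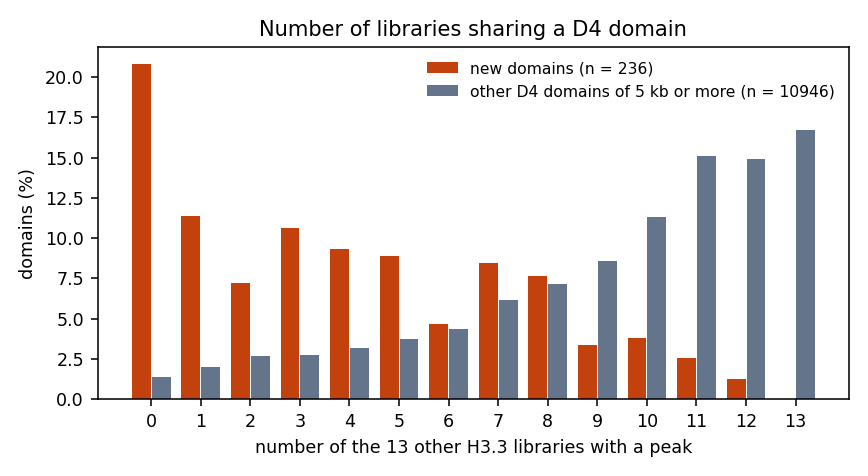
Bars give the share of domains (%) by the number of the 13 other H3.3 libraries with a peak in them, orange for new domains and grey for the other long D4 domains. New domains are most frequent at 0 libraries (20.8%) and the others at 13 (16.7%).

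The 49 domains seen in D4 alone also had fewer H3 marks. A D0 H3K36me3 peak met 5 of the 49 (10.2%, 4.44 to 21.8) and 87 of the other 187 (46.5%, 39.5 to 53.7). Peaks of at least 1 H3K36me3 library met 20.4% (11.5 to 33.6) and 57.8% (50.6 to 64.6), and of at least 1 H3K4me3 library 14.3% (7.10 to 26.7) and 48.1% (41.1 to 55.3). The 49 were chosen for having no peak in the 13 H3.3 libraries. The H3K4me3 and H3K36me3 lists came from the reprogramming series, which also gave most of these libraries. The part of that choice in the lower shares of marks was not tested. Among the 7 with H3K4me3 were the domains at the start of Itga11, with peaks of 6 of the 7 H3K4me3 libraries, and at the promoter of St8sia2, which makes polysialic acid, with all 7. An AP-1 match stood in 12 of the 49 central windows (24.5%, 14.6 to 38.1) and in 8.60% (5.36 to 13.5) of the other 186, 1 of 6 motifs compared. Over the whole domains AP-1 matches were 0.390 and 0.331 per kb. A TEAD match also stood in 12 of the 49 windows (24.5%, 14.6 to 38.1), and in 16.7% (12.0 to 22.7) of the 186. GATA, E-box and ETS matches were less frequent in the 49 than in the 186, and RUNX was at 8.16% and 8.06%. Of the windows of all D4 peaks, 14.6% held an AP-1 and 18.5% a TEAD match.

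Over all 236 domains, D0 H3K36me3 peaks met 92 (39.0%), against 57.9% of all D4 peaks of 5 kb or more. Among domains of 5 to 6 kb the share was 37.6%, which lay within the interval of the others (39.1%, 37.3 to 40.9). D9T- H3K36me3 met 90 (38.1%; background 55.4%). D0 H3K36me3 peaks covered 17.1% of the bases of the new domains and 31.1% of those of the other long domains. A D0 H3K36me3 peak of 5 kb or more met 35 of the 236 new domains and 3320 of the 10946 others. D0 H3K4me3 peaks met 57 (24.2%; background 66.0%) and iPSCs H3K4me3 52 (22.0%; background 49.1%). The Slc30a9 and Foxd2 domains, the latter over the start of a forkhead factor gene (118.4 tags), met H3K4me3 peaks in all 7 libraries, and the Faf2 domains met H3K36me3 in 6 and 5. No H3K4me3 or H3K36me3 list of the transdifferentiation was used here.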

How the data were processed

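Per the labels and the study's methods, the authors mapped reads to mm9 with STAR, dropped reads that mapped to more than one locus, and called peaks per library against input with HOMER (versions not given in the sources used here). The normalized tag count is a signal in the deposited lists, scaled by the authors to 10 M tags and not divided by length. The lists also give, as deposited, the fold over input, a ratio of 2 or more for H3.3 and 4 or more for H3K4me3 and H3K36me3. The deposited p-value is a Poisson value of at most 1.00e-04. Regions closer than 1000 bp were joined by the caller.

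Domains, overlaps (1 bp) and distances were computed in Python 3.11.15 (pandas 2.3.3, numpy 2.4.6), tested on simulated regions. The reference chromosomes, NCBIM37, have the lengths of mm9. Genes were the 22367 protein-coding genes of GENCODE vM1, classes were set by midpoint (promoter from 1000 bp upstream to 100 bp downstream), and levels were not compared across libraries. Intervals are 95% Wilson intervals and cover counting error only. They treat domains as independent, which neighbours are not. The 16 input libraries were used only through the lists. Members, gene lists and rules were chosen with earlier results of these data known. Named were the 10 highest, the 10 longest, the 10 genes with most domain bases, the 10 highest in both cKit fractions, list genes and delivered factors. Further genes named by distance, class or number of libraries were chosen after their values were seen.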

Additional observations from a re-analysis of the deposited data

How the results depend on the processing

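Of 60 values, from 8 results under 9 alternatives, 24 stayed within set limits and 36 fell outside them. The limit for a share was the Wilson interval of the unaltered result, and for a count a change of 1.5 times. The counting error of the alternative itself was not used. Some shares outside the limit rested on 7 domains or had intervals that overlapped that of the unaltered result. Falling outside a limit thus does not show a change beyond counting error. On autosomes alone all 8 results stayed within those limits. At a minimum of 10 kb, 7 domains and 5 genes remained, of which 0% met cKit- or iPSCs peaks, 71.4% D3 peaks and 57.1% D0 H3K36me3 peaks, and 57.1% lay within genes. With MEF alone as the fibroblast list there were 1869 domains in 1270 genes, and 36.4% met cKit+, 33.2% cKit-, 78.1% D3, 56.8% iPSCs and 57.8% D0 H3K36me3 peaks. With D0 alone, an alternative added after seeing the data, there were 426 domains in 284 genes. With no fibroblast peak within 5 kb there were 93 domains in 64 genes, 69.9% within genes, and 12.9% met cKit+, 31.2% D3, 25.8% iPSCs and 29.0% D0 H3K36me3 peaks. At 3-fold or more over input there were 111 domains in 78 genes, with 11.7% in cKit+ and 31.5% in D0 H3K36me3. When 10% of a domain had to be covered, the shares were 7.63% in cKit+, 5.51% in cKit-, 28.0% in D3, 26.7% in iPSCs and 29.7% in D0 H3K36me3. With equal numbers of peaks they were 15.3% in D3, 16.1% in iPSCs and 17.4% in D0 H3K36me3. By 1 bp of overlap 84.3% lay within genes. Each alternative changed the domains taken, the peaks used or the overlap required.

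No paired analysis was possible because every group had 1 library. Leaving out a replicate was not possible for the same reason. A domain without a peak in a library was not detected at that library's depth and enrichment, which does not show that H3.3 was absent.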

Other observations

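One of the new domains had an unusual sequence. The intergenic domain at chrX:131582808-131590317, seen in D4 alone (91.7 tags), held 178 of the 997 E-box matches (CAGCTG) counted over the 235 domains with sequence. Without it the density of E-box matches in the new domains was 0.561 per kb rather than 0.679 per kb, against 0.600 per kb in the other long D4 domains.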
